A study of Mus musculus with 12 samples.

Results

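Annotated features that lie in an intron of a gene on the opposite DNA strand were examined, for host genes spanning at most 100 kb. Such a feature had at least 50% of its exon bases inside exactly 1 opposite-strand gene, its host, no more than 10% inside any other, and at least 80% of the overlap in introns of the host. Features annotated as small nuclear, small nucleolar, micro or miscellaneous RNA or as pseudogenes were left out, and a mean of at least 1 CPM (counts scaled to the gene counts of a library) over 12 libraries was required. Of 55471 features in the count files, 1790 met the positional criteria and 1202, in 1103 hosts, also met the minimum. The annotation was GENCODE release M21 on GRCm38, the assembly also called mm10.

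The libraries came from mixed cortex and hippocampus of adult male C57BL6JL mice, 3 to 5 months old. They form 4 groups of 3: U1 RNA of mice stimulated by MECS, U1 RNA of naive mice, input RNA of mice stimulated by MECS and input RNA of naive mice. MECS is maximal electroconvulsive stimulation, a current of 85 mA given for 1 s through ear clips with tissue taken 90 min later, and naive mice were handled in parallel without it. Homogenized tissue was irradiated with ultraviolet light at 400 mJ per cm2, which crosslinks RNA to protein, input RNA was set aside from the lysate, and U1 RNA was recovered from the rest with an antibody against U1-70K. No control precipitate was among the libraries, so association with U1 and other differences in RNA recovery cannot be told apart. Title prefixes tie each U1 library to an input library, but the labels do not say whether tissue was pooled, and p-values measure the spread between these samples, which may be technical. In bulk tissue, fewer cells of a type and less RNA per cell cannot be told apart.

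U1 small nuclear ribonucleoprotein (U1 snRNP) base-pairs with the 5′ splice site at the start of an intron and begins assembly of the spliceosome. It also restrains cleavage and polyadenylation at cryptic sites inside introns, so that long transcripts reach their ends. U1-70K is a protein of this particle. Whether stimulation of neurons changes what U1 snRNP binds, and the use of polyadenylation sites in introns, is the question named in the title of the series. Many intron features are antisense or otherwise noncoding transcripts, and others are protein-coding genes. By the rule, a feature need not lie wholly inside its host or be smaller than it.

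The sequences shown first are from 6 intron features that differed between U1 and input in both states, and from 3 that were higher after MECS in input or U1 RNA, so that the letters of the introns concerned can be read. Each is a window of at most 120 bases of an annotated exon of the feature, lying wholly in host introns and written 5′ to 3′ on the strand of the host, as the reverse complement of the GENCODE M21 transcript, with GRCm38 coordinates. Capitals mark GTAAGT and GGTAAG, which match a 5′ splice site that pairs with U1, and AATAAA, the canonical polyadenylation signal. Windows were placed on GTAAGT where possible, then on GGTAAG, then on AATAAA, and otherwise at the middle of an exon. The capitals thus do not show how common these motifs are. The windows of features higher with U1 are Gm34648 in Igfbp7 at chr5:77393557-77393676 on the minus strand, Gm17276 in Notch3 at chr17:32113660-32113779 on the minus strand and Gm12867 in Slc2a1 at chr4:119130292-119130411 on the plus strand.
Gm34648: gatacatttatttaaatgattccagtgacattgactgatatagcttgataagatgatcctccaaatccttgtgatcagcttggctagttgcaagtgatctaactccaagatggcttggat
Gm17276: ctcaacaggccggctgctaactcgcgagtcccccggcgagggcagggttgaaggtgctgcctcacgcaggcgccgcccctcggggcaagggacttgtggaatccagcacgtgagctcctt
Gm12867: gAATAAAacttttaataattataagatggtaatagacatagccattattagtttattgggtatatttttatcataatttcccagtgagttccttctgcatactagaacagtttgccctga
The windows of features lower with U1 are Gm15849 in Tmcc2 at chr1:132382009-132382128 on the minus strand, Gm28902 in Resp18 at chr1:75275083-75275192 on the minus strand and Gm12224 in Acsl6 at chr11:54344634-54344753 on the plus strand.
Gm15849: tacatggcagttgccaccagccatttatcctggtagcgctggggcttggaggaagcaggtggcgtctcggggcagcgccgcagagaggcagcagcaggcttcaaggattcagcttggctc
Gm28902: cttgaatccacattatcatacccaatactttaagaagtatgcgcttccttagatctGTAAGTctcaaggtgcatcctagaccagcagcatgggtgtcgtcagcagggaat
Gm12224: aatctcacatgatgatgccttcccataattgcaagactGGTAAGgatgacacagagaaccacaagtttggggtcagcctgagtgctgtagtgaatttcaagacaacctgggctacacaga
The windows of features higher after MECS are Gm44850 in Itgad at chr7:128215915-128216034 on the plus strand, Gm16185 in Slc25a36 at chr9:97086198-97086317 on the minus strand and Gm29480 in Gpc1 at chr1:92847140-92847259 on the plus strand.
Gm44850: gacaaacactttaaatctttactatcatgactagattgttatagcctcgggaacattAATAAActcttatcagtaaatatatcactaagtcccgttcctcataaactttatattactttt
Gm16185: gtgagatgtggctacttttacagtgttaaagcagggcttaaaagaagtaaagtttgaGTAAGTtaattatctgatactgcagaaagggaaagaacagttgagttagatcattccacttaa
Gm29480: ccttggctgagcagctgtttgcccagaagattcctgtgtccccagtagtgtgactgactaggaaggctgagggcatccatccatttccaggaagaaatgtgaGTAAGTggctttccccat
The 3 features higher with U1 held no GTAAGT and no GGTAAG on the host strand in their longest transcript, and the 3 lower with U1 had 0, 1 and 0 matches to GTAAGT and 0, 1 and 2 to GGTAAG for Gm15849, Gm28902 and Gm12224. Over the called features, GTAAGT stood on the host strand of 12 of the 48 higher and 4 of the 18 lower in MECS brain, and of 13 of the 56 higher and 11 of the 28 lower in naive brain. Over all 1202 intron features, 28.1% had GTAAGT on the host strand and 23.2% on their own strand, with a median transcript of 1672 bases. Over all 55144 annotated features the shares were 22.9% on the opposite strand, whether or not it held a host, and 17.4% on their own. Their median transcript was shorter, at 1153 bases. Per kb of sequence the density on the opposite strand was 0.187 in the intron features and 0.17 in all features. GGTAAG, which overlaps GTAAGT by all but its outer base, stood on the opposite strand of 29.6% of intron features and 23.9% of all features, and AATAAA of 45.8% and 40.8%. Per kb the density of GGTAAG was 0.186 in the intron features and 0.174 in all features. That of AATAAA was lower in the intron features, at 0.592 against 0.62. A match is a description of these letters and not a bound site.

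Antisense RNA made up 432 of the intron features, protein-coding genes 447, the biotype TEC, for transcripts awaiting experimental checks, 136, lincRNA 95 and processed transcripts 55, and 37 had other biotypes. The host was protein-coding for 871. Hosts ranged from 1.94 to 99.4 kb with a median of 40.0 kb, and 1016 of them held 1 feature, 75 held 2 and 12 held 3. The midpoint lay in intron 1 of the longest host transcript for 447 features, in intron 2 for 208, in a later intron for 483 and in no intron of that transcript for 64. The overlap was wholly intronic for 629.

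Levels spanned 3 orders of magnitude. The mean over 12 libraries had a median of 26.2 CPM and ranged from 1.00 to 2150 CPM, 229 features reached 100 CPM, 265 were below 5 CPM, and 998 had a count in every library. The 3 features just above the 1 CPM minimum were Gm22094 in Tfcp2l1, Eloa in Gm13008 and Gm31774 in Hsd17b2 at 1.00 to 1.02 CPM, and the 3 just below were 9430073C21Rik in Myh2, Gm14426 in Haglr and 5830473C10Rik in Gm42109 at 0.979, 0.979 and 0.983 CPM. Of host spans, Clmp at 99.4 kb, host of Gm48293, was nearest below the 100 kb limit and Wipf1 at 100.1 kb, host of Gm13708, nearest above.

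The highest level belonged to 9330162G02Rik, a TEC feature of 30942 exon bases in Ube3a, the gene of a ubiquitin ligase that is silenced on the paternal allele in neurons. It had 2338, 2105 and 2359 CPM in MECS U1 libraries, 1185, 1935 and 1125 CPM in naive U1, 2720, 2561 and 2776 CPM in MECS input and 2400, 2253 and 2045 CPM in naive input. All 3 MECS U1 values lay above the naive U1 values, and naive U1 lay below naive input. Next were D030047H15Rik in Ttyh1, which encodes a chloride channel-related membrane protein, at a mean of 1010 CPM, Zhx3 in Plcg1, a phospholipase C gene, at 1003 CPM, and Ak3 in Cdc37l1 at 869 CPM. Gm43361 in Atp2a2, the gene of a calcium pump of the endoplasmic reticulum, averaged 864 CPM.

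Gene counts per library were 704432 to 1962312, or 1.42 to 1.84% of the reads listed. No source used here gives the strand setting with which reads were counted, so reads of a feature and reads of its host's unspliced RNA cannot be told apart. Per kb of exon, summed over the 12 libraries, the intron features had a median of 269 counts and the rows of their hosts 31.1, and 867 of 1198 features exceeded the row of their host. Over annotated features without an opposite-strand gene the median was 0.542 counts per kb of exon. Of these sets, the intron features alone had to reach 1 CPM, so the levels are a description. A feature is named below together with its host, without saying which of them the reads came from.

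The intron features held a larger share of gene counts after MECS in both RNAs. In U1 RNA the share was 8.51, 8.85 and 8.21% in MECS libraries and 7.98, 8.17 and 7.77% in naive libraries, or 8.52% ± 0.316 and 7.97% ± 0.197 (SD, n = 3 each). In input RNA it was 7.80, 8.59 and 8.48% in MECS libraries and 7.48, 7.32 and 7.68% in naive libraries, or 8.29% ± 0.43 and 7.49% ± 0.184. The groups did not overlap in either RNA, by a margin of a few hundredths of a percentage point in U1. Intron features of hosts over 100 kb held 12.3% ± 0.121 in MECS U1, 10.7% ± 1.07 in naive U1, 12.2% ± 0.85 in MECS input and 10.4% ± 0.461 in naive input. Features over host exons had lower means after MECS, with overlapping libraries in U1, at 21.2% ± 2.8 in MECS U1, 23.7% ± 1.61 in naive U1, 17.1% ± 2.41 in MECS input and 22.0% ± 0.785 in naive input. Shares of a library sum to a fixed total, so a higher share of the intron features cannot be told apart from a lower share of other features.

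**Figure D1:**
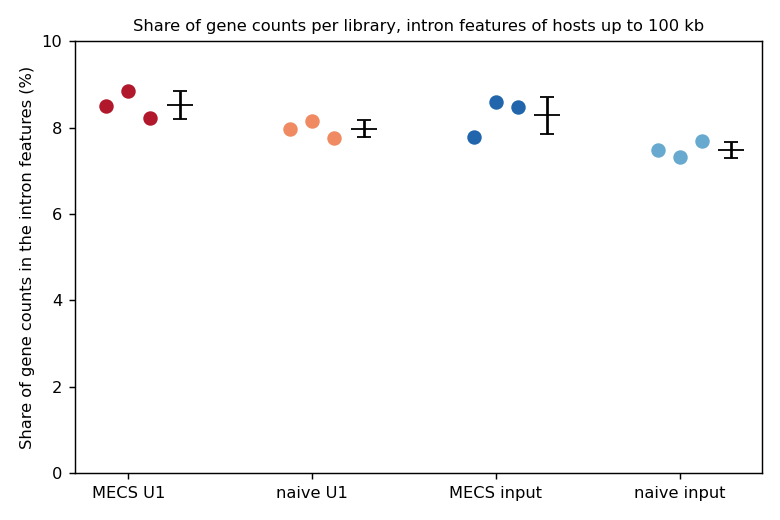
Share of each library's gene counts, in percent, that fell in intron features of hosts up to 100 kb. Points are libraries, and the black marks are the mean and SD of 3; MECS libraries sit between 7.80 and 8.85% and naive libraries between 7.32 and 8.17%, with no overlap within U1 or within input.

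U1 RNA was first set against input RNA, in each state. In MECS brain 48 of 855 tested intron features were higher with U1 (5.61%) and 18 were lower (2.11%), while over all 10791 features tested 3.3% were higher and 5.21% were lower. In naive brain 56 of 861 were higher (6.5%) and 28 were lower (3.25%), against 4.19% and 6.26% of all 10918 features tested. In either direction the background was 8.51% in MECS and 10.5% in naive brain. Intron features of hosts over 100 kb had a similar split. In MECS brain 48 of 982 were higher (4.89%) and 28 lower (2.85%), and in naive brain 64 of 975 (6.56%) and 31 (3.18%). Calls are at an adjusted p of 0.05 by edgeR's quasi-likelihood test, adjusted by Benjamini-Hochberg over all features, and the fold changes below are log2 of U1 over input from that test with standard errors (SE). With each U1 library paired to its input by a block, the count in MECS brain was 76 higher and 33 lower, or 12.7% of the tested intron features, and in the same fit 13.8% of all features were called, with 6% of all features higher. The features called higher lay in 46 hosts in MECS and 53 in naive brain and had a median level of 58.4 and 55.0 CPM, and those called lower had a median of 152 and 144 CPM. The median log2 fold change of the intron features was 0.05 in MECS and 0.06 in naive brain, and that of all features 0.02 and 0.03.

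MECS and naive brain share no library in these comparisons, and their calls overlapped. Of the features higher with U1, 39 were called in both states, 81.2% of the 48 in MECS and 69.6% of the 56 in naive brain. Of those lower, 17 were shared, 94.4% of the 18 and 60.7% of the 28. Every called feature that was tested in the other state had the same sign there, 48 of 48 higher and 18 of 18 lower for the MECS calls, and 54 of 54 higher and 28 of 28 lower for the naive calls. The same overlap was not counted over all called features, so it is not shown to be particular to the intron features.

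**Figure D2:**
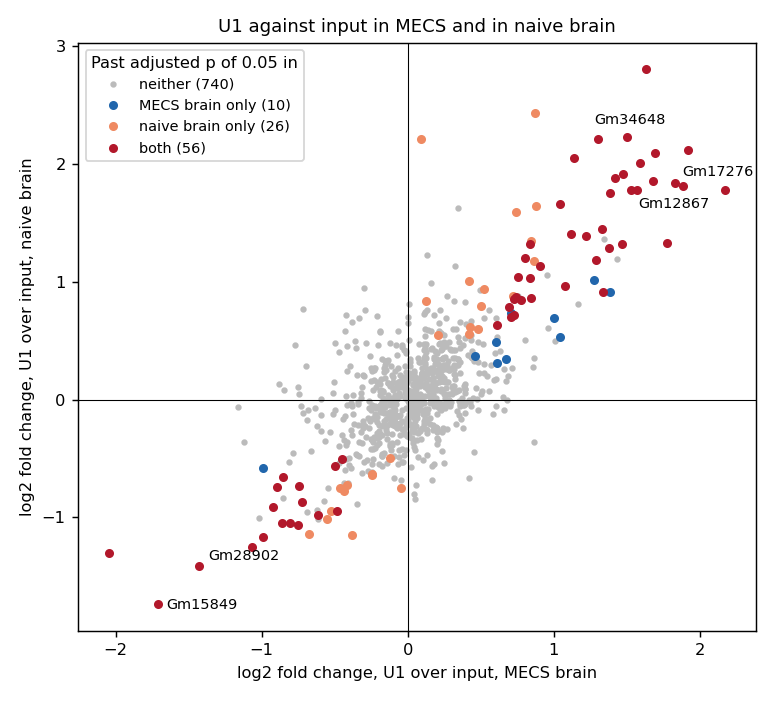
Log2 fold change of U1 over input for intron features tested in both states, in MECS brain (horizontal axis) and naive brain (vertical axis). Each point is a feature; 56 dark red points passed an adjusted p of 0.05 in both states, 10 blue points in MECS brain alone, 26 orange points in naive brain alone and 740 grey points in neither, and the coloured points lie in the lower left and upper right quadrants.

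Features in hosts known from blood vessels were among those highest with U1. Gm17276 lies in Notch3, a receptor of smooth muscle cells and pericytes. It had 364, 416 and 280 CPM in MECS U1 libraries against 117, 105 and 75.1 CPM in MECS input. In naive brain it had 308, 303 and 529 CPM in U1 against 100.3, 83.8 and 133 CPM in input. The log2 fold change was 1.83 (SE 0.18, edgeR adjusted p 5.15e-07) in MECS and 1.84 (SE 0.20, adjusted p 7.39e-08) in naive brain, with no overlap between U1 and input.

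Gm11946 in Smtn, which encodes smoothelin of contractile smooth muscle, had 507, 428 and 393 CPM in MECS U1 against 178, 163 and 155 CPM in MECS input. Its naive libraries had 346, 377 and 597 CPM in U1 against 102, 142 and 121 CPM in input. The log2 fold changes were 1.42 (SE 0.15) in MECS and 1.88 (SE 0.19) in naive brain. Notch3 and Smtn are the only hosts on the list of smooth muscle and pericyte genes that held an intron feature, and both features were called in both states.

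Endothelial hosts showed the same direction. Gm12867 in Slc2a1, the glucose transporter of the blood-brain barrier, had 251, 151 and 119 CPM in MECS U1 against 73.9, 57.2 and 47.2 CPM in MECS input. Naive libraries had 132, 170 and 181 CPM in U1 against 49.7, 50.5 and 43.7 CPM in input. Its log2 fold changes were 1.53 (SE 0.23) and 1.77 (SE 0.20), each U1 value lying above each input value.

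Gm42686 in Abcb1a, the P-glycoprotein drug efflux pump of brain endothelium, had 418, 386 and 242 CPM in MECS U1 against 202, 219 and 161 CPM in MECS input. The naive values were 269, 406 and 436 CPM in U1 against 235, 205 and 180 CPM in input. It was higher by 0.84 (SE 0.18) in MECS and 0.86 (SE 0.18) in naive brain. Slc2a1 and Abcb1a were the 2 hosts of the endothelial list with an intron feature. Another intron feature, itself a gene of that list, was tested and not called in either state. Outside the lists, 4930466I24Rik in Fgd5, a Cdc42 exchange factor of endothelium, was higher by 1.92 (SE 0.27) in MECS and 2.12 (SE 0.28) in naive brain. Gm47118 in Edn1, the gene of the vasoconstrictor endothelin 1, was higher by 1.39 (SE 0.32) in MECS brain, and in naive brain its value was 0.91 (SE 0.38, adjusted p 0.143).

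Gm34648 in Igfbp7, a secreted binding protein of insulin-like growth factors, had 94.7, 102 and 85.6 CPM in MECS U1 against 48.0, 32.2 and 17.3 CPM in MECS input. The naive libraries held 51.4, 54.3 and 63.7 CPM in U1 against 8.57, 10.1 and 16.6 CPM in input. Its log2 fold change was 1.498 (SE 0.24) in MECS and 2.23 (SE 0.30) in naive brain. Set against naive brain its MECS value was 0.71 (SE 0.19, edgeR adjusted p 0.0979) in U1 and 1.42 (SE 0.37, adjusted p 0.0642) in input RNA, with no overlap between MECS and naive libraries. Gm34648 lies in intron 1 of Igfbp7 and is 1 of the 39 features called higher in both states.

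The summed level of vascular marker genes, each counted with the features opposite it, moved the same way. The markers' own rows summed per library to 252 to 463 CPM for smooth muscle and pericytes and 197 to 344 CPM for endothelium. Most of the U1 sums below therefore lay in opposite-strand rows, 4 for smooth muscle and pericytes and 1 for endothelium, and do not show the marker panels moving together. The 7 smooth muscle and pericyte markers, counted with the features opposite them, summed to 1530 to 2200 CPM in MECS U1 and 1700 to 2910 CPM in naive U1, against 565 to 641 CPM in MECS input and 494 to 672 CPM in naive input. The 6 endothelial markers summed to 887 to 1230 CPM in MECS U1 and 886 to 1450 CPM in naive U1, against 377 to 513 CPM in MECS input and 464 to 519 CPM in naive input. Of these sums only the smooth muscle one contains an intron feature of the set, Gm17276 in Notch3, and their part in the results above was not tested.

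Other features higher with U1 are given here with a role of the host, or, for Gpr17 and Angptl8, of the feature itself. Whether the reads came from feature or host is not known for these either. The largest fold changes, 2.17 for Gm33467 in Degs2 in MECS brain and 2.90 for Gm43412 in Morn3 in naive brain, belonged to features with mean levels of 30.8 and 5.42 CPM. Gpr17, a receptor of oligodendrocyte precursors nested in Lims2, was higher by 1.59 (SE 0.17) in MECS and 2.01 (SE 0.20) in naive brain. Gm33467 in Degs2, which encodes an enzyme of sphingolipid synthesis, was higher by 2.17 (SE 0.33) in MECS and 1.78 (SE 0.32) in naive brain. Gm15894 in Il34, a ligand of the microglial receptor CSF1R, was higher by 1.78 (SE 0.31) in MECS brain; its naive value of 1.33 (SE 0.39, adjusted p 0.0212) lost its call with DESeq2 and without any of 4 libraries, with adjusted p from 0.012 to 0.143 over its alternatives. Angptl8, a secreted regulator of lipid metabolism nested in Dock6, was higher by 1.38 (SE 0.27) and 1.29 (SE 0.24), and Arhgap27os3 in Arhgap27, the gene of a GTPase-activating protein, by 1.12 and 1.404. With Gm17111, below, these were the called members of the list of cytoskeleton hosts, on which 9 features were tested.

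In a few hosts more than 1 intron feature was called. Gm16091 and Gm26586 in Tpm4, a tropomyosin gene, were higher with U1 by 0.90 (SE 0.19) and 0.83 (SE 0.18) in MECS brain, and by 1.13 (SE 0.25) and 1.03 (SE 0.21) in naive brain. Gm26586 lost its MECS call without MECS U1 replicate 1 (adjusted p 0.0647). Gm44981 and 4930517G19Rik in Slc6a6, the taurine transporter gene, were higher by 0.73 (SE 0.13) and 0.71 (SE 0.14) in MECS brain and by 0.86 (SE 0.16) and 0.70 (SE 0.18) in naive brain. Gm44981 had 616, 653 and 549 CPM in MECS U1 against 365, 356 and 378 CPM in MECS input, and 521, 498 and 614 CPM in naive U1 against 268, 279 and 361 CPM in naive input. The naive call of 4930517G19Rik was lost without naive input replicate 2 (adjusted p 0.0807) and without naive U1 replicate 3 (adjusted p 0.127). Features of 1 host did not in general share a direction: among hosts with at least 2 tested features, all had the same sign in 30 of 59 hosts in MECS and in 37 of 60 in naive brain.

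Features lower with U1 included members in hosts of neurons and glia. Gm15849 in Tmcc2, a transmembrane protein gene, had 53.0, 62.0 and 68.2 CPM in MECS U1 against 262, 166 and 174 CPM in MECS input. In naive brain it had 89.3, 54.8 and 80.04 CPM in U1 against 300.0, 212 and 221 CPM in input. Its log2 fold change was -1.71 (SE 0.19, edgeR adjusted p 2.02e-06) in MECS brain and -1.74 (SE 0.20, adjusted p 8.61e-08) in naive brain, the most negative of the intron features called in naive brain.

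Gm28902 in Resp18, which encodes a protein of neuroendocrine secretory granules, had 28.8, 21.4 and 21.1 CPM in MECS U1 against 68.0, 52.8 and 71.3 CPM in MECS input. In naive brain it had 25.7, 19.6 and 10.3 CPM in U1 against 66.8, 43.3 and 36.2 CPM in input. Its log2 fold changes were -1.43 (SE 0.23) and -1.41 (SE 0.32), and the naive call was lost without naive input replicate 1 (adjusted p 0.0715).

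Gm37824 in C1ql3, a secreted C1q-like protein of synapses, was at -0.80 (SE 0.17) in MECS and -1.05 (SE 0.24) in naive brain, where DESeq2 made no call (adjusted p 0.234, the highest over its alternatives, which began at 3.03e-06).

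Of glial hosts, Gm12224 in Acsl6, an acyl-CoA synthetase gene, had 327, 341 and 309 CPM in MECS U1 against 690, 583 and 673 CPM in MECS input, and 252, 270 and 253 CPM in naive U1 against 647, 638 and 476 CPM in naive input. Its log2 fold changes were -0.99 (SE 0.13) and -1.17 (SE 0.16), and it was the tested feature in a host on the astrocyte list. Bcas1os2 in Bcas1, a gene of myelinating oligodendrocytes, was at -0.89 (SE 0.16) in MECS and -0.75 (SE 0.17) in naive brain, and was 1 of 2 features tested on the oligodendrocyte list. The marker sums that follow count the markers together with the features opposite them. The 6 astrocyte markers summed to 1430 to 1520 CPM in MECS U1 and 1160 to 1360 CPM in naive U1, against 3780 to 5550 CPM in MECS input and 4210 to 6440 CPM in naive input. The 6 oligodendrocyte markers summed to 308 to 371 CPM in MECS U1 and 305 to 315 CPM in naive U1, against 579 to 738 CPM in MECS input and 531 to 781 CPM in naive input. The 6 markers of excitatory neurons summed to 178 to 286 CPM in MECS U1 and 235 to 273 CPM in naive U1, against 365 to 493 CPM in MECS input and 390 to 472 CPM in naive input. The 6 of inhibitory neurons summed to 54.3 to 62.9 CPM in MECS U1 and 44.2 to 74.9 CPM in naive U1, against 140 to 214 CPM in MECS input and 172 to 253 CPM in naive input. Per library, the markers' own rows summed to 83.9 to 404 CPM for astrocytes and 264 to 719 CPM for oligodendrocytes. For excitatory neurons they summed to 104 to 393 CPM and for inhibitory neurons to 13.3 to 21.5 CPM. The rest of the astrocyte and inhibitory sums came from 1 opposite-strand row each, so these sums do not show 6 markers moving together. The part of these sums in the results was not tested.

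1700071M16Rik in Pla2g7, which encodes a phospholipase that inactivates platelet-activating factor, was at -1.06 (SE 0.15) in MECS and -1.25 (SE 0.18) in naive brain. Gm17111 in Dync1h1, the dynein heavy chain gene, was at -0.74 (SE 0.18) and -0.73 (SE 0.17), and its MECS call was lost without MECS input replicate 1 (adjusted p 0.0813). 9330162G02Rik in Ube3a was called in naive brain, at -0.64 (SE 0.18, adjusted p 0.0169), and lost that call without naive U1 replicate 1 (adjusted p 0.12), naive U1 replicate 3 (adjusted p 0.0715) or naive input replicate 2 (adjusted p 0.0539). Its MECS value was -0.24 (SE 0.13, adjusted p 0.301).

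**Figure D3:**
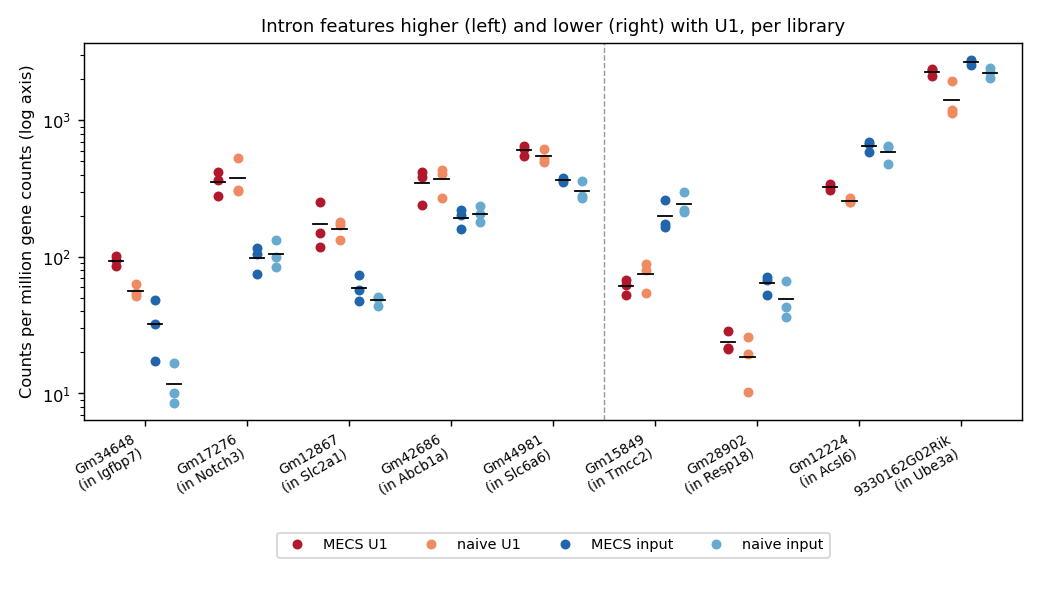
CPM per library (log axis) of 5 intron features higher with U1, left of the dashed line, and 4 lower with U1, right of it. Points are libraries in the order MECS U1, naive U1, MECS input and naive input, and bars are means of 3; U1 points lie above input points at the left, up to 652.8 against 378.5 CPM in MECS brain for Gm44981, and below them at the right within each state, by the smallest distance for 9330162G02Rik.

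The remaining lists had few or no called features. No feature passed in either state in presynaptic hosts (5 tested), ion channel hosts (3), hosts encoding U1 snRNP proteins and partners (3), chromatin regulators (4), ribosomal and translation genes (3) or endocytosis and vesicle trafficking genes (6), nor among 13 in kinase and phosphatase hosts. Some intron features are themselves genes of a list. Of 4 tested chromatin regulators that are themselves intron features, Kdm1a in Luzp1, a histone demethylase gene, was higher with U1 in both states. Its fold change was 0.69 (SE 0.16, edgeR adjusted p 0.00483) in MECS and 0.79 (SE 0.22, adjusted p 0.0141) in naive brain. In naive brain its groups overlapped and DESeq2 made no call (adjusted p 0.0577, with up to 0.112 over its alternatives). Kdm7a, another histone demethylase gene, was higher by 1.17 (SE 0.30, adjusted p 0.00879) in naive brain and stood at 0.86 (SE 0.30, adjusted p 0.0823) in MECS brain. Among 10 features in hosts of splicing factors and RNA-binding proteins, Gm43980 in Tra2a, a splicing activator gene, was lower with U1 in naive brain, at -0.64 (SE 0.19, adjusted p 0.0227), a call lost with library size scaling (adjusted p 0.0507) and without any of 4 libraries. Gm13544 in Acvr1c, an activin receptor gene on the list of activity-regulated effectors, was lower in naive brain at -1.14 (SE 0.30, adjusted p 0.0085), with a MECS value of -0.67 (SE 0.29, adjusted p 0.194).

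Features nearer to a full intronic overlap were counted by direction. At an overlap of at least 95% intronic, which 776 of the 1202 features met, 28 of the 48 features higher and 6 of the 18 lower with U1 in MECS brain remained, and 30 of 56 and 9 of 28 in naive brain. Features tested at that overlap numbered 542 in MECS and 543 in naive brain. Over all features tested, 3.3% were higher and 5.21% lower in MECS brain, and 4.19% and 6.26% in naive brain. Of features that lie over exons of an opposite-strand host, 72 of 321 (22.4%) were lower with U1 in MECS and 88 of 323 (27.2%) in naive brain, and 13 and 9 were higher. In hosts that held both kinds, the intron feature had the higher U1 to input fold change in 12 of 14 pairs tested in MECS brain, with medians of 0.07 for intron and -0.44 for exon features. In naive brain it was higher in 12 of 15 pairs in 13 hosts, with medians of 0.08 and -0.57. Nr2c2, a nuclear receptor gene, is such a host: its intron feature Gm44249 was at 0.22 and -0.03 in MECS and naive brain, and Mrps25, over its exons, at -0.83 and -1.06.

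Position and base composition were described over tested features without a test. In MECS brain the median log2 fold change of U1 over input was 0.13 for features with their midpoint in the first 25% of the host, 0.06 between 25 and 50%, 0.02 between 50 and 75% and 0.01 beyond. In naive brain the medians were 0.05, 0.11, 0.02 and 0.01. Features in intron 1 had medians of 0.11 in MECS and 0.08 in naive brain, against 0.02 and 0.02 in later introns. By tertile of GC content, from lowest to highest, the medians were -0.07, 0.05 and 0.16 in MECS brain and -0.07, 0.05 and 0.24 in naive brain. Features with GTAAGT on the host strand had medians of -0.004 in MECS and 0.01 in naive brain, and those without it 0.07 and 0.07, but those with it were longer, at a median of 2650 bases against 1271 in MECS brain. GC content, length and motif content were not separated from each other.

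**Figure D4:**
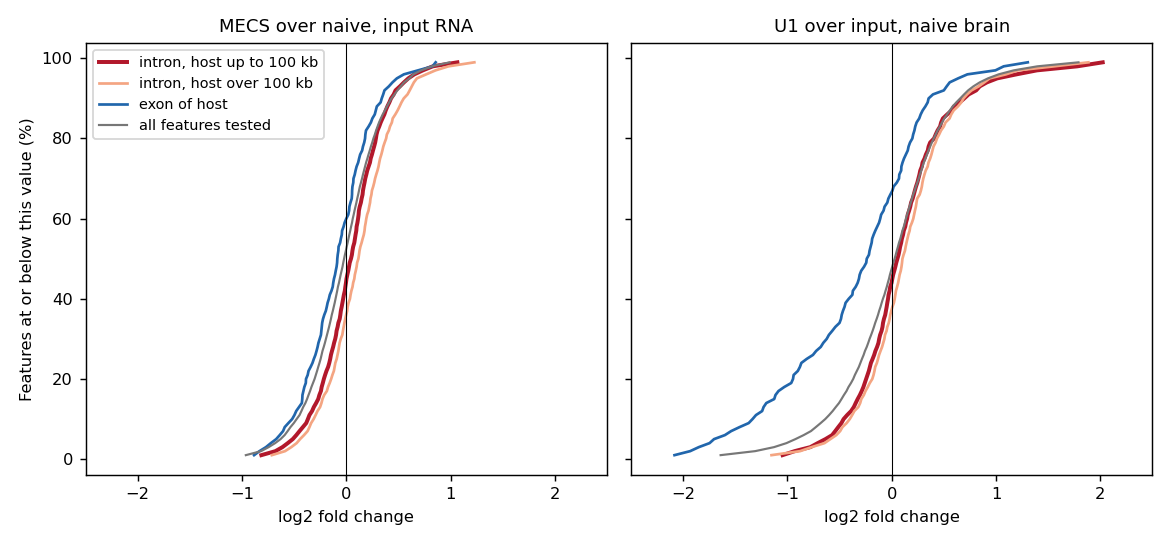
Cumulative share of tested features, in percent, against log2 fold change for MECS over naive in input RNA (left) and U1 over input in naive brain (right). In both panels the median of intron features of hosts up to 100 kb lies between those of exon features and of intron features of larger hosts, at 0.05, -0.09 and 0.12 at the left and 0.06, -0.24 and 0.10 at the right.

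MECS was then set against naive brain. In input RNA 4 of 837 tested intron features were higher after MECS and none was lower; 0.606% of all 10402 features tested were called, 0.51% higher and 0.0961% lower, so the count is near the background. At an unadjusted p under 0.05, 74 features passed (8.84%), beside 9.66% of all features tested. The median log2 fold change of MECS over naive was 0.05, against -0.02 over all features. In intron features of hosts over 100 kb, 23 of 945 were higher and none lower, with a median of 0.12.

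Nap1l5, an imprinted retrotransposed gene nested in intron 22 of the ubiquitin ligase gene Herc3, had 197, 96.6 and 193 CPM in MECS input against 78.0, 88.1 and 89.7 CPM in naive input. Its log2 fold change was 0.91 (SE 0.21, edgeR adjusted p 0.0326), and the lowest MECS value lay just above the highest naive one. In U1 RNA Nap1l5 had 183, 106 and 147 CPM after MECS and 68.5, 97.5 and 72.3 CPM in naive brain, a fold change of 0.83 (SE 0.20, adjusted p 0.0695).

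Gm29480 in intron 1 of Gpc1, a glypican gene of the cell surface, had 225, 154 and 260.0 CPM in MECS input against 98.6, 140.1 and 123 CPM in naive input, a log2 fold change of 0.81 (SE 0.19, adjusted p 0.0341). AC142100.4 in intron 1 of Zfp516, a zinc finger gene, had 125, 102 and 133 CPM in MECS input against 66.0, 57.8 and 72.4 CPM in naive input, a log2 fold change of 0.84 (SE 0.19, adjusted p 0.0297). Their U1 values were 0.63 (SE 0.17, adjusted p 0.103) and 0.74 (SE 0.20, adjusted p 0.111). The 4 calls in input RNA were lost when any naive input library was left out, which gave 0 called features, and without MECS input replicate 3, which left 1 other feature called. Nap1l5 also lost its call without MECS input replicate 1 (adjusted p 0.0941), and without MECS input replicate 2 the count was 9.

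In U1 RNA 2 of 886 tested intron features were higher after MECS and none was lower, while 0.386% of all 11141 features tested were called, 0.332% higher and 0.0539% lower. The 2 features are 0.226% of those tested, which is not above the background. At an unadjusted p under 0.05, 104 passed (11.7%), beside 10.5% of all features tested, and the median was 0.03 against -0.02 over all features. Among intron features of hosts over 100 kb, 17 of 1000 were higher and none lower. Without naive U1 replicate 2 the count was 17, or 1.9%, beside 1.93% of all features, and without MECS U1 replicate 2 it was 11 with 1 of them lower, or 1.21%, beside 121 of all 12035 features tested. Without MECS U1 replicate 3 it was 1, and without naive U1 replicate 1 or 3 or MECS U1 replicate 1 it was 0.

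Gm16185, in intron 4 of Slc25a36, a mitochondrial carrier of pyrimidine nucleotides, had 799, 746 and 724 CPM in MECS U1 against 398, 540.2 and 302 CPM in naive U1. The log2 fold change was 0.84 (SE 0.17, edgeR adjusted p 0.017), with no overlap. In input RNA it had 1058, 1029 and 1093 CPM after MECS and 942, 786 and 687 CPM in naive brain, at 0.37 (SE 0.15, adjusted p 0.365). Its ratio of U1 to input was lower than 1 in both states, with log2 fold changes of -0.48 (SE 0.13) in MECS and -0.94 (SE 0.18) in naive brain; the MECS call was lost under 5 alternatives, with adjusted p up to 0.0886.

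Gm44850 in Itgad, an integrin alpha gene of macrophages, had 18.2, 16.1 and 28.5 CPM in MECS U1 against 4.89, 7.03 and 1.72 CPM in naive U1. The log2 fold change was 2.08 (SE 0.45, adjusted p 0.0366), on 2 to 14 counts in each naive library. Over its alternatives the adjusted p ranged from 0.00102 to 0.256, and with the replicate number as a block it was 0.0728. In input RNA it had 24.4, 16.1 and 38.5 CPM after MECS and 10.3, 13.0 and 3.77 CPM in naive brain, at 1.60 (SE 0.43, adjusted p 0.0704). The other feature of this host, Cox6a2, a subunit gene of cytochrome c oxidase, was at 1.75 (SE 0.50, adjusted p 0.0962) in input and 0.91 (SE 0.41, adjusted p 0.431) in U1 RNA. Gm44850 was the called feature of the microglia and macrophage list, and no feature of another host list passed after MECS. The 6 microglial markers, counted with the features opposite them, summed to 251 to 263 CPM in MECS U1 and 245 to 279 CPM in naive U1. In input they summed to 262 to 310 CPM after MECS and 286 to 317 CPM in naive brain.

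None of the 3 features in hosts of activity-regulated effectors passed after MECS. The list of activity-induced transcription factors had no intron feature. Gm48444 in Inhba, the activin subunit gene that neuronal activity induces, had 18.9, 8.42 and 12.4 CPM in MECS U1 against 2.45, 4.52 and 3.44 CPM in naive U1, at 1.80 (SE 0.50, adjusted p 0.124). In input it had 20.7, 16.1 and 27.9 CPM after MECS against 4.29, 13.0 and 6.03 CPM in naive brain, at 1.56 (SE 0.44, adjusted p 0.0904). The groups did not overlap, and the highest count in a naive library was 9.

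Gm15965 in Synj1, the gene of the presynaptic phosphatase synaptojanin 1, had 276, 196 and 262 CPM in MECS U1 against 173, 160 and 126 CPM in naive U1, at 0.66 (SE 0.17, adjusted p 0.0869). In input it had 281, 218 and 278 CPM after MECS against 172, 169 and 166 CPM in naive brain, at 0.59 (SE 0.16, adjusted p 0.0747). Gm43980 in Tra2a had 677, 674 and 698 CPM in MECS U1 against 351, 536 and 265 CPM in naive U1, at 0.80 (SE 0.18, adjusted p 0.0502). These values sat close to the threshold: DESeq2 called Gm15965 in U1 (adjusted p 0.0191) and input RNA (adjusted p 0.0209) and Gm43980 in U1 RNA (adjusted p 0.0043). Over their alternatives the adjusted p ranged from 0.0163 to 0.508 for Gm15965 in U1 RNA, from 0.0209 to 0.328 for Gm15965 in input RNA and from 8.75e-05 to 0.33 for Gm43980 in U1 RNA.

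**Figure D5:**
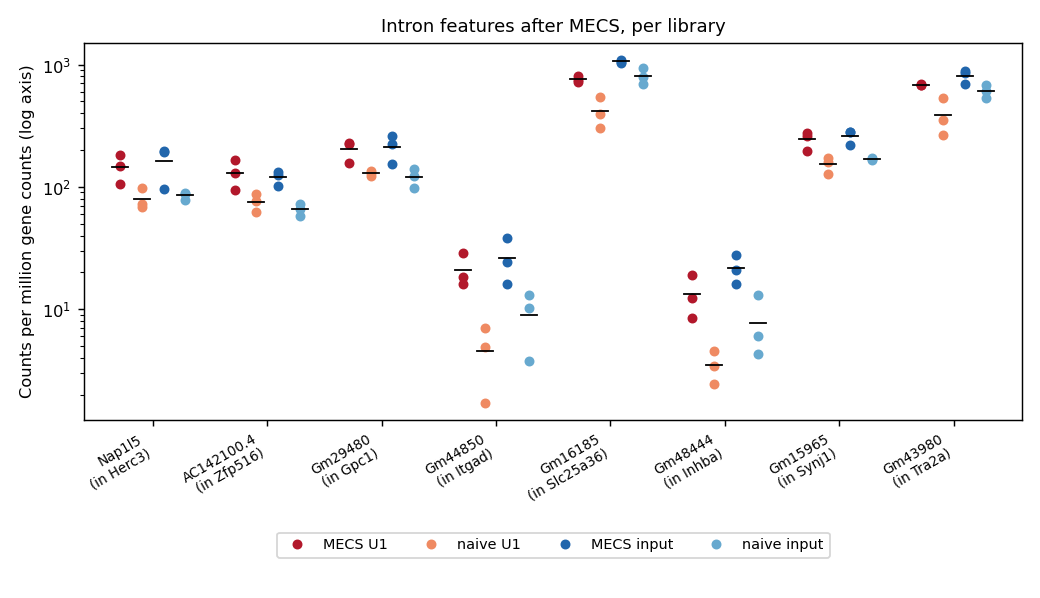
CPM per library (log axis) of 5 intron features called higher after MECS in input or U1 RNA, followed by Gm48444, Gm15965 and Gm43980, which did not pass. Points are libraries in the order MECS U1, naive U1, MECS input and naive input, and bars are means of 3; for Gm16185 the MECS U1 libraries lie between 724.2 and 798.6 CPM, above the naive U1 libraries at 302.1 to 540.2 CPM.

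Whether MECS changed the ratio of U1 to input was tested as an interaction over all 12 libraries. None of 909 tested intron features passed with edgeR, and 0% of all 12184 features did; 19 intron features (2.09%) and 3.14% of all features had an unadjusted p under 0.05, and DESeq2 made 0 calls. For Gm16185 the log2 difference of the ratio, MECS minus naive, was 0.46 (SE 0.23, adjusted p 0.997), and for 9330162G02Rik it was 0.41 (SE 0.23, adjusted p 0.997). The median log2 ratio of U1 to input over the intron features was 0.04, 0.03 and 0.07 in the 3 MECS pairs of libraries and 0.02, 0.18 and -0.01 in the 3 naive pairs. Its mean of 0.06 in naive brain was 0.00 without naive replicate 2.

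The MECS changes were described by host length, without a test. In input RNA the medians of MECS over naive were 0.06 for hosts up to 10 kb, 0.05 for 10 to 25 kb, 0.04 for 25 to 50 kb, 0.08 for 50 to 75 kb and 0.00 for 75 to 100 kb. In U1 RNA they were 0.00, -0.02, 0.03, 0.08 and 0.07. By tertile of GC content from lowest to highest, the medians in U1 RNA were 0.11, 0.04 and -0.06, and in input RNA 0.08, 0.05 and -0.01.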

How the data were processed

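RNA was measured in 12 libraries, 3 in each of 4 groups, by sequencing with single-end reads of 100 bp from a stranded kit, per the labels' protocols. The authors deposited whole-number counts per Ensembl gene, 1 table per library, and nothing in the values shows normalization. The submitters' processing notes name DESeq2, FastQC, Trimmomatic 0.39, Salmon 1.4, HISAT2 2.2.0, StringTie 2.1.3 and the build mm10 with no roles; which program counted, with which annotation and strand setting, is not given in the sources used. GENCODE M21 matched 55144 of the 55471 identifiers, and 327 were left out of the overlaps. Entries that name no gene entered neither library sizes nor tests; 1.42 to 1.84% of listed reads were in genes. Groups were compared on all features with edgeR 4.0.16 under R 4.3.3 by its quasi-likelihood test (TMM, default filterByExpr, Benjamini-Hochberg at 0.05); SE is the fold change over the square root of F. CPM use TMM-scaled gene counts, and ratios per pair of U1 and input libraries a pseudocount of 0.5 CPM. The steps were tested on simulated data. Alternatives were RLE and library size scaling, other filters, DESeq2 1.42.0, 95% intronic overlap, other CPM minimums, a fit without features of mitochondrial, ribosomal or small RNA, a fit of all 12 libraries, each library left out in turn, a pseudocount of 2 CPM and a replicate block.

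Features named are those past the threshold with a fitted level of at least 2 log2 CPM, groups that did not overlap and a named host, the 12 largest changes each way, up to 3 per host list, the 10 highest levels and those nearest the limits of the rule; others are the remaining called features. Of the 20 host lists, those without an intron feature cover activity-induced transcription factors and host genes of small nucleolar RNAs. Hosts for cleavage, polyadenylation and termination held 5 features, of which 3 to 5 were tested in a comparison, and none passed. The 1 feature in a glucocorticoid response host was tested and did not pass. Some called features are not reported here. Members and lists were chosen with earlier results of these data known. U1 and input libraries with the same title prefix were paired, though the labels do not say that a prefix is 1 mouse. Their deviations from group means correlated at 0.10, 0.21 and 0.11 in MECS and 0.02, -0.09 and -0.01 in naive libraries.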

Additional observations from a re-analysis of the deposited data

How the results depend on the processing

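Counts of intron features called after MECS depended on the processing. In input RNA, 4 became 11 with library size scaling, 9 with no filter, 8 with a filter of 1 CPM in 3 libraries, 7 with DESeq2 and 7 with the replicate block, and 0 to 9 when a library was left out. In U1 RNA, 2 became 10 with no filter, 7 with the filter of 1 CPM, 9 with DESeq2 and 5 with all 12 libraries in 1 fit, and 0 to 17 when a library was left out. The replicate block also called 2 in U1 RNA, but Gm44850 was lost (adjusted p 0.0728) and Gm43980 entered (adjusted p 0.032). The share called over all features moved as well: in input RNA it was 1.24% with library size scaling, against 1.31% of the intron features, 0.36% against 0.749% with no filter, 0.495% against 0.699% with the filter of 1 CPM, 2.99% against 2.88% with DESeq2 and 1.37% against 0.836% with the block. In U1 RNA it was 0.467% against 0.832% with no filter and 0.442% against 0.592% with the filter of 1 CPM. It was 1.75% against 1.48% with DESeq2 and 0.722% against 0.55% with all libraries. The DESeq2 shares are of fewer features, those it gave an adjusted p. These were 2140 of all features and 243 intron features in input RNA, and 6006 and 610 in U1 RNA. In input RNA DESeq2 called 64 of all features, against 63 with edgeR, so its higher share there reflects the smaller number tested. Replicate numbers of MECS and naive libraries share only a number, with correlations of -0.09 to 0.06. For U1 against input, 66 in MECS brain became 34 at 95% intronic overlap and 109 with the replicate block that pairs U1 and input by title prefix. It became 46 to 64 when a library was left out. In naive brain 84 became 39 at 95% and 82 with the block, and 55 to 102 when a library was left out. Of the called features, 37 of 66 and 45 of 84 kept their call under every alternative run in which they had a value, and no called value reversed. The interaction gave 0 under every alternative. The share of counts became 10.1, 9.83, 9.2 and 8.92% (MECS U1, naive U1, MECS input, naive input) without mitochondrial, ribosomal RNA and small RNA features, and 4.66, 4.32, 4.34 and 3.85% at 95% intronic overlap. The median log2 ratio of U1 to input in MECS brain became 0.074 at 95% overlap (0.03 to 0.05 when a pair of libraries was left out). That in naive brain ranged from 0.00 to 0.10 when a pair was left out. With library size scaling the median log2 fold change of all features in naive U1 against input was 0.11, against 0.03, and 70 intron features were higher and 22 lower, against 56 and 28. Where not named, the cause was not tested. Depth limits the low features: 837 of the 1202 passed the count filter in the input comparison of MECS with naive brain.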

Other observations

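Among the 26 intron features annotated as ribosomal RNA, short copies of 5S-type genes of 94 to 134 exon bases, 8 to 13 were tested in a comparison and none passed. Gm26280 in Arl8a had the highest level, a mean of 31.3 CPM. Their median log2 fold change of U1 over input was -0.21 over 9 features in MECS brain and 0.12 over 8 in naive brain. Copies of this family are near-identical, and how the authors' counting treats reads shared between them is not known, so single values are uncertain.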
